A study of Mus musculus and Homo sapiens with 60 samples.

Results

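Of 36240 regions with the histone mark H3K4me1 in both libraries of wild-type mouse spleen B cells, 6694 (18.5%) carried no peak of H3K27ac, H3K4me3 or RNA polymerase II (RNAPII) there, and are called primed regions here. They were found by merging the peaks of the 2 wild-type H3K4me1 lists into 51047 regions, keeping those with a peak in both lists, and dropping every region that overlapped, by 1 bp or more, a wild-type peak of H3K4me3 (2 lists), H3K27ac (1 list) or RNAPII (1 list). Wild-type Myc was not used in the choice. The members were thus chosen by measured peaks of the wild-type H3K4me1, H3K4me3, H3K27ac and RNAPII lists, so the absence of the other marks in wild-type cells is a description, and a later peak of one of those marks counts as a gain by construction.

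H3K4me1 is laid down at enhancers, the distal elements that raise transcription of genes on the same chromosome, and at the flanks of promoters. Enhancers that carry H3K4me1 without H3K27ac are known as primed: they are marked but not active, and some become active when a cell differentiates or is stimulated. H3K27ac, written by the acetyltransferases CBP and p300, marks active enhancers and promoters, H3K4me3 marks promoters, and RNAPII is found where DNA is transcribed. Myc is a transcription factor that binds DNA with its partner Max, mostly in chromatin that is already open.

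The study mapped Myc, RNAPII and the histone marks by chromatin immunoprecipitation and sequencing (ChIP-seq) in the Eµ-myc mouse, in which an immunoglobulin heavy-chain enhancer drives a Myc transgene in B cells and B-cell lymphomas arise. Tumour cells (transgenic, genotype Tg) were pressed out of lymph nodes with no further purification and are labelled as B cells. Transgenic spleen samples (Tg) and wild-type spleen samples (WT) were B cells enriched on B220 beads from animals of 6 to 8 weeks. All 3 groups were of the C57BL/6 strain, and none had a treatment. No age is stated for the tumour-bearing animals. The mouse model has 31 peak lists: 15 of tumours (3 for each of Myc, RNAPII, H3K4me3, H3K4me1 and H3K27ac), 9 of transgenic spleen (3 for Myc, 2 each for H3K4me3 and H3K4me1, 1 each for RNAPII and H3K27ac) and 7 of wild-type spleen (2 each for H3K4me3 and H3K4me1, 1 for each of the others). The labels say neither whether replicates came from separate animals nor whether libraries of the same number came from 1 tumour.

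The lists held 5246 to 66090 peaks each. Myc lists were longer in tumours (27347 to 34142 peaks) than in the spleen lists, which had 5246 to 12985 in transgenic and 6978 in wild-type cells. Median Myc peak widths were 1386 to 1473 bp in tumours, but 261 bp in transgenic spleen library 1 and 233 bp in wild-type spleen, against 1476 and 1429 bp in transgenic spleen libraries 2 and 3. RNAPII peaks had median widths of 581, 1432 and 1545 bp in tumours 1, 2 and 3, 524 bp in transgenic spleen and 894 bp in wild-type spleen. The H3K27ac list of tumour 3 was the longest of its mark (42542 peaks), against 31642 and 31954 in tumours 1 and 2, while the spleen lists had 30895 (transgenic) and 40757 (wild type). Read depth is not known from peak lists. A region without a peak is therefore one where no peak was called, and in bulk cells a mark in fewer cells and a weaker mark in every cell cannot be told apart. The labelled cell type could not be checked against marker genes, because no gene annotation on the mouse build of the files (mm9) was used here. For the same reason regions are named by mm9 coordinates, and no gene or sequence is given.

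Primed regions were short and weakly marked. Their median length was 2150 bp, with 90% between 1289 and 5008 bp, and together they covered 16.8 Mb. For comparison, 13511 regions with H3K4me1 in both wild-type lists, wild-type H3K27ac and no wild-type H3K4me3 or RNAPII (acetylated distal regions) had a median length of 3141 bp. Each peak carries the authors' score, on the scale of -10 log10 of the peak caller's p-value, and a score percentile here is its rank within its own list. The median wild-type H3K4me1 percentile was 28.3 in primed regions and 59.0 in acetylated distal regions. These values are close to what the rule selects on and carry no test.

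The nearest wild-type H3K27ac peak lay at a median distance of 8349 bp from a primed region, and 507 primed regions (7.57%) had one within 1000 bp. At the edge of the rule, 111 primed regions had another wild-type mark within 200 bp, and of these 17, 26 and 20 gained H3K27ac in tumours 1, 2 and 3 and 4 did so in transgenic spleen. Just outside the rule, 13 acetylated distal regions overlapped wild-type H3K27ac by 200 bp or less, and of these 3, 2 and 2 had H3K27ac in the tumours and 3 in transgenic spleen. In 938 primed regions the weaker of the wild-type H3K4me1 peaks ranked below the 5th percentile of its list. Of those weak members, 9.28%, 10.3% and 18.3% had H3K27ac in tumours 1, 2 and 3. By chromosome, the primed share of the H3K4me1 regions found in both lists ran from 14.6% on chromosome 7 to 23.2% on X.

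Acetylation was the most frequent gain in tumours when all 3 were pooled. H3K27ac peaks lay on 11.9% (797), 13.6% (908) and 20.3% (1356) of primed regions in tumours 1, 2 and 3, against 5.39% (361) in the transgenic spleen library. All 3 tumours were above the spleen library, and tumour 3 stood above the other tumours. Over the 16841 wild-type H3K4me1 regions without wild-type H3K27ac, whatever their other marks, the shares were 8.82%, 11% and 19% in tumours 1, 2 and 3. The tumour mean was 15.2% ± 4.42 (SD, n = 3), 2.83 times the single spleen value, and the difference was 9.85 percentage points. An exact two-sided permutation test over libraries gave p = 0.5, the smallest that 3 against 1 libraries allow, and 0.5 after Benjamini-Hochberg adjustment over the 10 comparisons tested here. When peaks below the median score of their list were dropped, the difference was 4.28 points. The exact (Clopper-Pearson) 95% interval of the spleen share was 4.86% to 5.96% and covers counting error only.

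In all, 2235 primed regions (33.4%) carried H3K27ac in at least 1 tumour. The background was lower, with 29.3% of the same 16841 regions having an H3K27ac peak in at least 1 tumour. In transgenic spleen the background was 4.79%, beside the 5.39% of primed regions. These backgrounds contain the primed regions themselves. In the other 10147 regions H3K27ac lay on 6.78%, 9.31% and 18.2% in tumours 1, 2 and 3, on 26.6% in at least 1 tumour and on 4.40% in transgenic spleen, each below the primed value and by over 1.5 times in tumour 1, where it was 11.9%. Of these others, 8204 had H3K4me1 in 1 list only and no other mark, with a median length of 1394 bp against 2150 bp in primed regions. H3K27ac lay on 6.83%, 8.46% and 17.4% of those 8204 in the tumours. Primed regions under 1500 bp had it on 9.07%, 11.6% and 16.1%, lower in tumour 3. The part of length and H3K4me1 strength was not tested. Unmarked DNA was set beside the primed regions: among 1172581 windows of 2000 bp without any wild-type mark of the 4 used for the rule, 0.42%, 0.484% and 1.72% had H3K27ac in tumours 1, 2 and 3 and 0.106% in transgenic spleen. The primed share was 28.3, 28.0 and 11.8 times the window share in the tumours and 51.0 times in transgenic spleen, a description with no test. The windows include stretches of the assembly to which reads cannot be placed.

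Most acetylated primed regions were acetylated in 1 tumour only, and tumour 3 shared the smallest part of its own. Of the 2235 gained regions, 1544 (69.1%) had H3K27ac in 1 tumour, 556 in 2 and 135 in all 3. The share in all 3 tumours was 1.66% over all unacetylated H3K4me1 regions, against 135 of 6694 here. Of 4936 such regions with H3K27ac in at least 1 tumour, 279 had it in all 3, beside 135 of 2235 primed regions, a similar part. The low sharing was therefore not particular to primed regions. Tumours 1 and 2 shared 459 acetylated primed regions, 57.6% of those of tumour 1 and 50.6% of those of tumour 2. Tumour 3 shared 229 with tumour 1 and 273 with tumour 2, only 16.9% and 20.1% of its own. H3K27ac found in a single tumour made up 30.6% (244) of the acetylated primed regions of tumour 1, 34.3% (311) of those of tumour 2 and 72.9% (989) of those of tumour 3. Chromosome 3 held 14.3% of the regions found only in tumour 1 but 5.27% of all primed regions, and chromosome 5 held 10.6% of those found only in tumour 2 and 6.12% of all. These chromosomes were picked after the values were seen, and the part of DNA copy number in those shares was not tested.

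Myc came close behind. Myc peaks lay on 13.2% (886), 12.1% (807) and 16.1% (1081) of primed regions in tumours 1, 2 and 3, on 0.971% (65), 0.478% (32) and 3.32% (222) in transgenic spleen libraries 1, 2 and 3, and on 0.314% (21) in the wild-type library. The lowest tumour value was above the highest spleen value, so the groups did not overlap. Over all 51047 wild-type H3K4me1 regions, promoters included, the tumour shares were 43.9%, 40.9% and 44%. The means were 13.8% ± 2.11 in tumours and 1.59% ± 1.52 in transgenic spleen (SD, n = 3 each), a ratio of 8.70 and a difference of 12.2 points. Without transgenic spleen library 3 the spleen mean was 0.725% and the ratio 19.1. The exact two-sided permutation p was 0.1, the smallest that 3 against 3 allow, and 0.3125 after adjustment over the 10 comparisons. The difference depended on how many peaks were read: with an equal number of the highest-scoring peaks per list it was 0.523 points (exact permutation p = 0.3), and with peaks below the list's median score dropped 4.15 points.

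Across tumours, 1861 primed regions (27.8%) carried Myc in at least 1, of which 1160 did so in 1 tumour, 489 in 2 and 212 in all 3. Over all wild-type H3K4me1 regions 57% carried Myc in at least 1 tumour and 30.5% in all 3, so primed regions were below this background. In transgenic spleen 257 primed regions (3.84%) had Myc in at least 1 library, against a background of 27.7%. Of the 21 primed regions with wild-type Myc, 15 had Myc in at least 1 tumour.

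RNAPII and H3K4me3 appeared on fewer primed regions. RNAPII peaks lay on 2.96% (198), 9.22% (617) and 7.02% (470) of primed regions in tumours 1, 2 and 3, against 0.553% (37) in the transgenic spleen library. Over 39991 wild-type H3K4me1 regions without wild-type RNAPII the tumour shares were 8.46%, 15.3% and 15.8%. The tumours with wide RNAPII peaks, 2 and 3, had the high shares, tumour 1 and the spleen library had narrow peaks and low shares, and the part of peak width in this was not tested beyond setting all peaks to 500 bp, which gave a difference of 4.77 points. The tumour mean was 6.40% ± 3.18 (SD, n = 3), 11.6 times the spleen value, a difference of 5.85 points with an exact permutation p of 0.5, the smallest possible, and 0.5 after adjustment. The difference was 2.77 points with an equal number of the highest-scoring peaks per list and 2.68 points with peaks below the median score dropped. At least 1 tumour had RNAPII on 872 primed regions (13.0%), all 3 on 109, and transgenic spleen on 37. The backgrounds over the same 39991 regions were 23.3%, 5.26% and 3.39%, each higher than in primed regions.

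H3K4me3, the promoter mark, lay on 2.60% (174), 3.29% (220) and 3.47% (232) of primed regions in tumours 1, 2 and 3, against 0.388% (26) and 0.553% (37) in the transgenic spleen libraries. The groups did not overlap. Over 31751 wild-type H3K4me1 regions without wild-type H3K4me3 the tumour shares were 5.8%, 6.97% and 7.29%. The means were 3.12% ± 0.457 in tumours (SD, n = 3) and 0.471% ± 0.116 in transgenic spleen (SD, n = 2), a difference of 2.65 points with an exact permutation p of 0.2, the smallest that 3 against 2 allow, and 0.3125 after adjustment. Gained H3K4me3 peaks were weak, with median percentiles of 14.5, 19.0 and 22.0 in the tumour lists and 8.18 and 4.85 in the spleen lists, and with peaks below the median score dropped the difference was 0.117 points, against 1.36 with equal peak numbers. In at least 1 tumour 481 primed regions (7.19%) had H3K4me3, in all 3 tumours 19, and in transgenic spleen 52. The backgrounds over those 31751 regions were 14.4%, 0.91% and 1.33%.

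**Figure D1:**
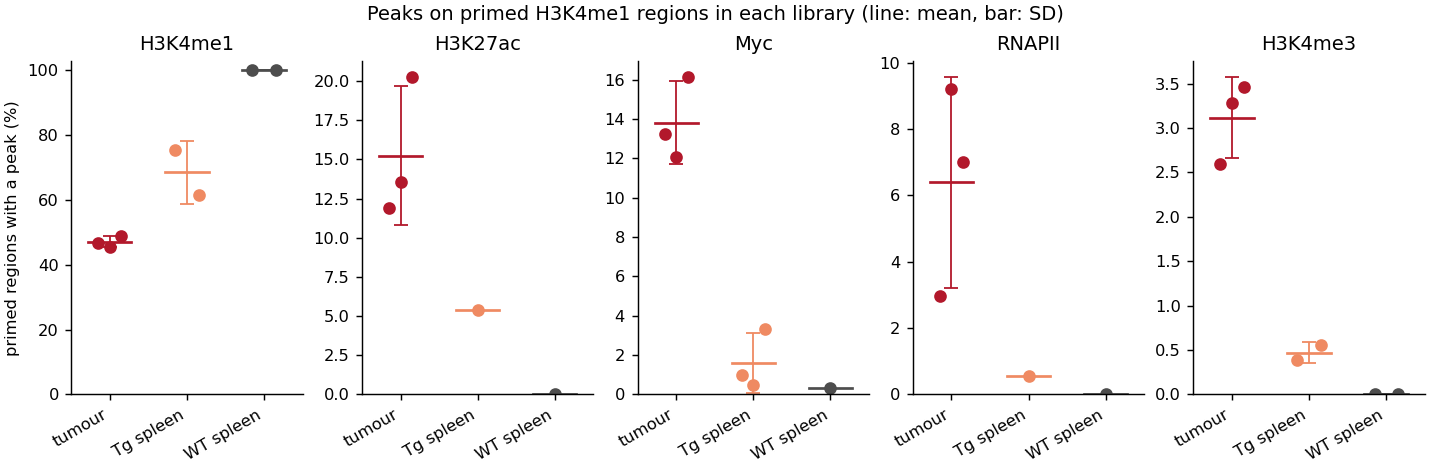
Share of the 6694 primed regions with a peak (percent, vertical axis, a scale of its own in each panel) for each mark in tumours, transgenic spleen (Tg) and wild-type spleen (WT); points are libraries, lines are means and bars are SDs where a group has 2 or more libraries. Tumour libraries lie above transgenic spleen libraries without overlap for H3K27ac, Myc, RNAPII and H3K4me3, while H3K4me1 runs the other way, and the wild-type values of 100% and 0% are fixed by the choice of regions for all marks but Myc.

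H3K4me1 itself was kept on under 1 in 2 primed regions in each tumour. It lay on 46.7%, 45.5% and 48.9% of primed regions in tumours 1, 2 and 3, and on 75.2% and 61.6% in the transgenic spleen libraries. Every tumour was below both spleen libraries. Over the 36240 regions in both wild-type lists the tumour shares were 78.6%, 81.3% and 78.2%. The means were 47.1% ± 1.69 in tumours (SD, n = 3) and 68.4% ± 9.61 in transgenic spleen (SD, n = 2), a difference of -21.4 points with an exact permutation p of 0.2, the smallest possible, and 0.3125 after adjustment. When peaks below the median score of their list were dropped, the difference was -0.199 points (exact permutation p = 1). At least 1 tumour kept H3K4me1 on 5083 primed regions (75.9%, background 92.8%), and all 3 tumours did so on 1268, against a background of 63.8%. At least 1 transgenic spleen library did so on 5635 (84.2%, background 96%). H3K4me1 was present in all 5 transgenic libraries on 984 primed regions (14.7%) and in none on 525 (7.84%). The matching shares over the 36240 regions were not counted, so whether these are particular to primed regions is not known.

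Primed regions were set beside acetylated distal regions in the same libraries. Myc was less frequent on primed regions in all 7 Myc libraries. On acetylated distal regions it lay on 34.6%, 28.4% and 34.6% in tumours 1, 2 and 3, on 5.05%, 4.27% and 14.5% in transgenic spleen and on 1.79% in the wild-type library. The mean difference, primed minus acetylated, was -10.95 points (exact two-sided sign-flip permutation p = 0.0156, the smallest that 7 libraries allow, 0.156 after adjustment over the 10 comparisons). This mean pools wild-type, transgenic spleen and tumour libraries, from -1.48 points in wild-type spleen to -21.4 in tumour 1, and describes no single stage. Primed regions are shorter: among regions of 1500 to 3000 bp the difference was -4.92 points, with equal numbers of the highest-scoring peaks -2.49 points, and with peaks below the median score dropped -5.34 points, lower on primed regions in each case.

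H3K4me1 was kept less often on primed than on acetylated distal regions in 5 of 5 libraries. The acetylated regions kept it on 74.9%, 79.3% and 72.5% in the tumours and on 96.2% and 85.3% in transgenic spleen. The mean difference was -26.0 points (exact sign-flip permutation p = 0.063, the smallest possible, 0.3125 after adjustment). Primed regions had weaker wild-type H3K4me1 (median percentile 28.3 against 59.0), and the part of this was not tested. The 365 primed regions between the 60th and 80th percentile kept H3K4me1 on 96.4% and 95.6% in transgenic spleen. In tumours 1, 2 and 3 they kept it on 64.7%, 81.9% and 60.8%. H3K27ac lay on 45.6%, 51.5% and 52.5% of acetylated distal regions in the tumours and on 58.5% in transgenic spleen. The mean difference, primed minus acetylated, was -39.3 points, and -16.8 points with peaks below the median score dropped. The wild-type H3K27ac list split the sets, so this is a description with no test.

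Of the primed regions with H3K27ac, 97.5%, 93.1% and 90.4% in tumours 1, 2 and 3 and 99.2% in transgenic spleen held the centre of such a peak. At the centre of primed regions H3K27ac covered 9.86%, 12.2% and 17.6% in the tumours and 4.47% in transgenic spleen, against 2.23%, 3.84% and 5.89% in the tumours and 1.27% in transgenic spleen at 2000 bp to the right. Further out coverage was higher again: at 6000 bp to the right it was 6.45%, 8.74% and 9.76% in the tumours, below their centre values, and 7.41% in transgenic spleen, above its centre value. Myc covered 10.2%, 8.92% and 12.7% of centres in the tumours, 1.18%, 1.25% and 1.63% at 2000 bp, and 5.08%, 4.74% and 4.96% at 6000 bp. RNAPII differed: the peak centre lay inside the region for 94.4%, 79.9% and 73.8% in tumours 1, 2 and 3.

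**Figure D2:**
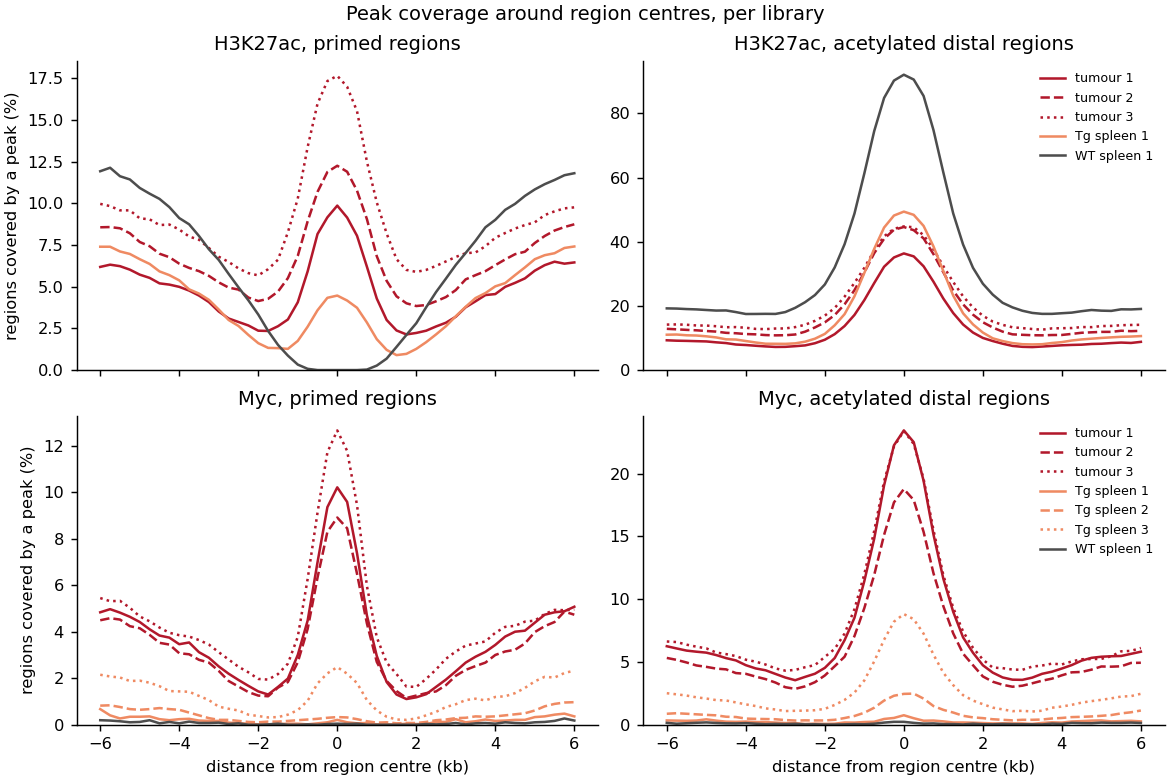
Share of regions covered by a peak (percent, vertical axis) by distance from the region centre (kb), for H3K27ac (top) and Myc (bottom), on 6694 primed regions (left) and 13511 acetylated distal regions (right); each line is 1 library, red for tumours, orange for transgenic spleen and grey for wild-type spleen. On primed regions H3K27ac is higher at the centre than anywhere else shown in every tumour (9.86% to 17.6%). In transgenic spleen it has a local maximum there (4.47%) but is higher 6000 bp away (7.39% and 7.41%), and wild-type spleen is at 0 at the centre by the choice of regions and higher to both sides.

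The gained H3K27ac peaks were weak for their lists. Their median score percentiles were 28.7, 33.5 and 38.8 in tumours 1, 2 and 3 and 14.1 in transgenic spleen, and 20.8%, 27.3% and 35.1% in the tumours and 2.77% in transgenic spleen reached the median of the list. Gained Myc peaks had median percentiles of 31.9, 33.2 and 42.8 in the tumours and 23.9, 30.5 and 30.5 in transgenic spleen. Gains of H3K27ac were seen at all distances from wild-type acetylation. Within 1000 bp of wild-type H3K27ac 15.0%, 16.2% and 23.1% of primed regions had tumour H3K27ac, at 5000 to 20000 bp 10.1%, 11.8% and 19.1%, and beyond 100000 bp 18.4%, 16.4% and 16.4% (342 regions). RNAPII was rare far away: 0.585%, 2.34% and 1.46% beyond 100000 bp, against 3.59%, 11.3% and 8.20% at 5000 to 20000 bp. The stronger the wild-type H3K4me1 peak, the more primed regions carried tumour Myc, from 9.06%, 8.33% and 14.0% below the 20th percentile to 22.2%, 21.9% and 23.3% between the 60th and 80th. RNAPII rose as well, from 2.29%, 6.58% and 5.99% to 6.58%, 23.3% and 12.3% in tumours 1, 2 and 3. Median region length rose over the same bins, from 1690 to 4294 bp, and its part was not tested. These are descriptions over regions, which are not replicates.

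Within a tumour, taken as the lists of the same number, Myc and H3K27ac met on the same primed regions. Myc lay on 57.8%, 59.7% and 59.5% of the primed regions with H3K27ac in tumours 1, 2 and 3, and on 7.21%, 4.58% and 5.13% of those without. The difference was 50.6, 55.1 and 54.4 points, positive in 3 of 3 tumours, with a mean of 53.4 (exact sign-flip permutation p = 0.25, the smallest that 3 pairs allow, 0.3125 after adjustment). With an equal number of the highest-scoring peaks per list, which leaves 5246 Myc peaks, the mean was 6.54 points. Conversely, 52.0%, 67.2% and 74.7% of primed regions with Myc had H3K27ac in the same tumour.

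The pairing followed the tumour number. Read against the H3K27ac of tumours 1 and 2, Myc of tumour 3 lay on 22.0% and 25.1% of acetylated primed regions, against 59.5% with its own. Myc of tumour 1 lay on 44.8% of regions acetylated in tumour 2 and 18.9% of those acetylated in tumour 3. Myc of tumour 2 lay on 42.4% of regions acetylated in tumour 1 and 18.4% of those acetylated in tumour 3. In each tumour its own H3K27ac list gave the highest share. Acetylated primed regions with Myc also had stronger H3K27ac peaks, with median percentiles of 39.0, 43.6 and 48.5 in tumours 1, 2 and 3, against 18.6, 19.8 and 25.2 for those without Myc.

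**Figure D3:**
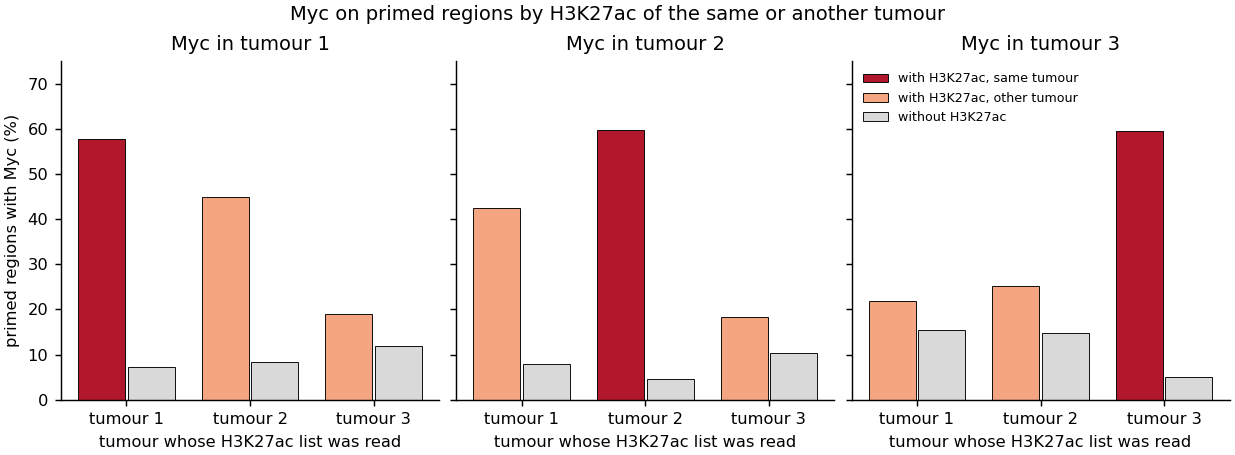
Share of primed regions with Myc (percent, vertical axis) in each tumour (panels), for regions with H3K27ac in the same tumour (dark red), with H3K27ac in another tumour (light red) and without H3K27ac in that tumour (grey). The dark bars stand at 57.8% to 59.7%, the light bars at 18.4% to 44.8%, and tumours 1 and 2 resemble each other more than either resembles tumour 3.

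H3K4me1 stayed where H3K27ac appeared. Of the primed regions with H3K27ac, 98.2%, 97.9% and 99.5% had H3K4me1 in the tumour of the same number, against 39.8%, 37.3% and 36.0% of those without H3K27ac. Where H3K4me1 was absent in the tumour, H3K27ac lay on 0.393%, 0.521% and 0.205% of primed regions. H3K4me1 in transgenic spleen went with tumour acetylation as well. Of primed regions with tumour H3K27ac, 72.8%, 76.7% and 60.2% had H3K4me1 in both transgenic spleen libraries, against 49.9%, 48.9% and 50.7% of those without.

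Most H3K4me3 gains fell on acetylated regions. H3K27ac accompanied 74.1%, 78.2% and 78.9% of the primed regions with H3K4me3 in tumours 1, 2 and 3, and Myc accompanied 69.5%, 77.3% and 75.9%. RNAPII came in 2 settings. RNAPII without H3K27ac lay on 148, 482 and 288 primed regions, of which 12.8%, 6.22% and 8.33% had Myc and 1.35%, 0.622% and 1.74% had H3K4me3. RNAPII together with H3K27ac lay on 50, 135 and 182 primed regions, of which 78.0%, 85.2% and 79.1% had Myc and 38.0%, 54.8% and 39.6% had H3K4me3. Whether the first kind lies in transcribed gene bodies was not analysed here.

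Counting combinations, at least 1 of the 4 (H3K27ac, RNAPII, H3K4me3, Myc) lay on 1378, 1655 and 1926 primed regions in tumours 1, 2 and 3 and on 608 in transgenic spleen. H3K27ac with Myc and nothing else made up 24.5%, 20.9% and 29.6% of those regions in the tumours and 12.2% in transgenic spleen. H3K27ac alone made up 21.8%, 19.9% and 25.5% in the tumours and 45.4% in transgenic spleen. Myc alone made up 28.3%, 13.3% and 12.4% in the tumours and 28.1% in transgenic spleen, and RNAPII alone 9.36%, 27.3% and 13.6% in the tumours and 5.10% in transgenic spleen. All 4 together lay on 18, 71 and 69 primed regions in tumours 1, 2 and 3. Combinations were counted on primed regions only, so these counts have no background beside them.

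**Figure D4:**
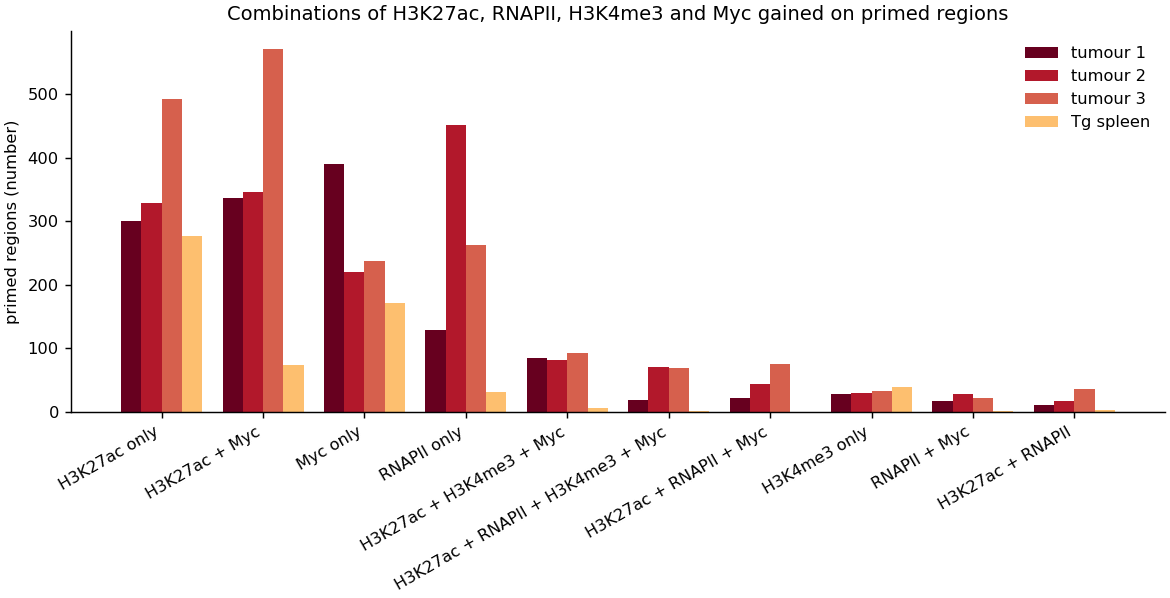
Number of primed regions (vertical axis) with each combination of H3K27ac, RNAPII, H3K4me3 and Myc peaks, for tumours 1 to 3 and for transgenic spleen (Tg, all its libraries merged for each mark); the 10 most frequent combinations are shown. The commonest combination is Myc alone in tumour 1 (390 regions), RNAPII alone in tumour 2 (452), H3K27ac with Myc in tumour 3 (571) and H3K27ac alone in transgenic spleen (276).

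Peaks gained in transgenic spleen were mostly found again in at least 1 tumour. Of the 361 primed regions with H3K27ac in transgenic spleen, 298 (82.5%) had it in at least 1 tumour and 53 (14.7%) in all 3, against 30.6% and 1.29% of the 6333 without it. Tumour by tumour, H3K27ac lay on 50.4%, 60.1% and 40.7% of the early acetylated regions and on 9.71%, 10.9% and 19.1% of the others. The mean difference was 37.2 points, positive in 3 of 3 tumours (exact sign-flip permutation p = 0.25, the smallest possible, 0.3125 after adjustment). With peaks below the median score dropped it was 59.0 points, but only 2.77% of the 361 regions reached that score in transgenic spleen, so that value rests on few regions. For Myc, 226 of 257 early regions (87.9%) had it in at least 1 tumour, against 25.4% of the regions without it in transgenic spleen. For RNAPII the count was 32 of 37 (86.5%), against 12.6%, and for H3K4me3 41 of 52 (78.8%), against 6.62%.

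The order of H3K27ac and Myc could not be told on most regions with both in a tumour, since neither had a peak called in transgenic spleen. The labels do not link spleen and tumour samples to the same animals, so no region was followed over time. A mark is called first here where it alone of the pair had a peak in transgenic spleen. Of 461, 542 and 807 primed regions with both in tumours 1, 2 and 3, 293 (63.6%), 323 (59.6%) and 650 (80.5%) had neither in transgenic spleen. H3K27ac alone was already there on 79, 89 and 79, Myc alone on 35, 65 and 53, and both on 54, 65 and 25. Transgenic spleen had 1 H3K27ac library and 3 Myc libraries, of which library 3 held Myc on 222 of the 257 primed regions with early Myc, and the counts depended on it. With Myc library 3 alone, H3K27ac was there first on 79, 91 and 80 and Myc first on 34, 60 and 48. With Myc library 1 alone, Myc was first on 4, 14 and 13 and H3K27ac first on 127, 143 and 98. With Myc library 2 alone, Myc was first on 5, 8 and 6 and H3K27ac first on 119, 140 and 99. These counts compare the sample groups in which peaks were called, and the Myc lists of transgenic spleen are shorter than its H3K27ac list.

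Of 281 primed regions with H3K27ac and no Myc in transgenic spleen, 177 (63.0%) had Myc in a tumour, against 23.7% of the 6156 regions with neither. Of 177 primed regions with Myc and no H3K27ac in transgenic spleen, 102 (57.6%) had H3K27ac in a tumour, against 29.8% of the regions with neither. By tumour, H3K27ac lay on 20.3%, 38.4% and 32.2% of those early Myc regions in tumours 1, 2 and 3. The 80 regions with both in transgenic spleen had H3K27ac in 72.5%, 85% and 35% and Myc in 86.3%, 87.5% and 42.5% in the tumours. Tumour 3 kept these early regions least often.

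**Figure D5:**
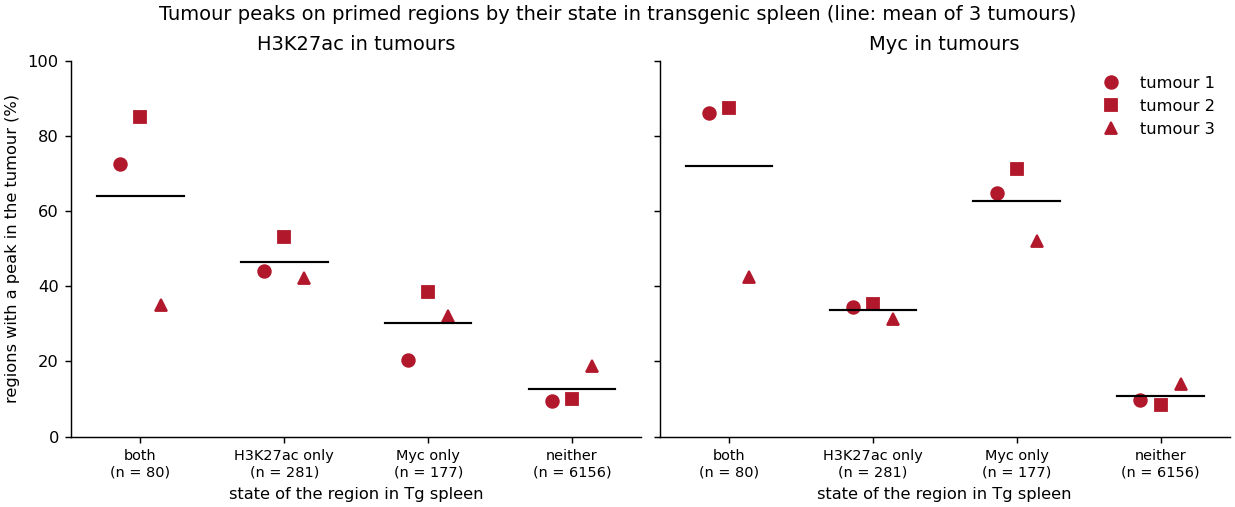
Share of primed regions with H3K27ac (left) or Myc (right) in each tumour (percent, vertical axis), by what the region carried in transgenic spleen; points are tumours, black lines are means of the 3 tumours, and n is the number of regions. Regions with both marks in transgenic spleen are highest in tumours 1 and 2 (72.5% and 85.0% for H3K27ac), and regions with neither are lowest in all 3.

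Among regions that had both in a tumour, RNAPII or H3K4me3 was seldom called in transgenic spleen without H3K27ac. Among primed regions with H3K27ac and RNAPII in tumours 1, 2 and 3, H3K27ac alone was present in transgenic spleen on 19, 57 and 30 and RNAPII alone on 1, 4 and 8. For H3K27ac and H3K4me3 the counts were 47, 58 and 31 with H3K27ac first and 0, 5 and 6 with H3K4me3 first. For Myc and RNAPII the counts were 16, 42 and 16 with Myc first and 6, 5 and 5 with RNAPII first. For Myc and H3K4me3 they were 20, 37 and 10 with Myc first and 0, 6 and 6 with H3K4me3 first. These counts pool 3 Myc libraries of transgenic spleen, against 1 of RNAPII and 2 of H3K4me3. With Myc library 3 alone, Myc was first on 16, 40 and 14 against RNAPII. Myc libraries 1 and 2 alone were not counted for these pairs, so the counts may rest on library 3. RNAPII and H3K4me3 were rare in transgenic spleen to begin with, and in each of these pairs most regions had neither there (53.3% to 87.5%).

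Single regions show these patterns. No primed region carried all 4 in all 3 tumours. In 18 regions all 4 met in 2 tumours and in 122 in 1. Of the 18, the 4 with the highest mean tumour H3K27ac percentile are given here, a choice made after the values were seen. The region chr4:138077598-138079203 (1606 bp, 56313 bp from another wild-type mark) had H3K27ac and Myc in all 3 tumours, RNAPII and H3K4me3 in tumours 2 and 3, and H3K27ac alone in transgenic spleen. Its H3K27ac percentiles were 51.5, 89.6 and 91.4 in tumours 1, 2 and 3 and 59.0 in transgenic spleen, the values in tumours 2 and 3 being tied at the highest score of their lists. The region chr5:136477058-136481712 had H3K27ac and Myc in all 3 tumours and H3K27ac and Myc already in transgenic spleen, with RNAPII and H3K4me3 in tumours 1 and 2. The regions chr1:182837726-182839969 and chr16:91540650-91543028 had H3K27ac, RNAPII and H3K4me3 in at least 2 tumours and nothing of the 4 in transgenic spleen. They lay only 973 and 524 bp from another wild-type mark, and chr5:136477058-136481712 lay 2374 bp from one.

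Only 1 primed region had all 4 in transgenic spleen, chr7:151424013-151428377, which lay 227078 bp from the nearest other wild-type mark. It had H3K27ac, H3K4me3 and Myc in tumours 1 and 2, RNAPII in tumour 2, and none of the 4, nor H3K4me1, in tumour 3. Its H3K27ac percentiles were 93.8 and 89.6 in tumours 1 and 2 and 94.9 in transgenic spleen, the value in tumour 2 being tied at the highest score of its list.

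Regions acetylated early and in all 3 tumours, with no H3K4me3 in any library, numbered 32. The 6 with the highest mean tumour H3K27ac percentile all kept H3K4me1 in every tumour and carried Myc in at least 1. The first, chr4:46638608-46640084, had H3K27ac percentiles of 62.0, 89.6 and 69.6 in tumours 1, 2 and 3 and 35.7 in transgenic spleen, and Myc in all 3 tumours at percentiles of 45.6, 64.5 and 33.1. A nearby region, chr4:46642027-46643997 had H3K27ac percentiles of 58.7, 89.6 and 62.8 in the tumours, with Myc in all 3. In both regions the tumour 2 value is tied at the highest score of its list. The others were chr18:37994138-37996183 (Myc in tumours 1 and 2), chr11:59906426-59907831 (Myc in tumour 2), chr19:25384781-25386785 and chr15:9418787-9425567 (Myc in all 3 tumours). The last was the one of the 6 with Myc in transgenic spleen, in libraries 1 and 3. The 6 lay from 916 bp (chr11:59906426-59907831) to 21812 bp (chr4:46638608-46640084) from another wild-type mark.

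Of 82 primed regions with H3K27ac in all 3 tumours and none in transgenic spleen, 7 had no Myc in any library. The matching share over other H3K4me1 regions was not counted. The first by rank was chr1:128979712-128981489, 118381 bp from another wild-type mark, with H3K27ac percentiles of 21.4, 22.2 and 76.8 in tumours 1, 2 and 3. The next was chr8:27687984-27690226, with 15.6, 33.2 and 51.3. None of the 6 that the rule names (the others were chr8:106719770-106722039, chr2:38150468-38152348, chr1:14089633-14092998 and chr1:193077024-193078982) had RNAPII or H3K4me3 in a tumour or in transgenic spleen. The last of them lay only 903 bp from another wild-type mark, and chr1:14089633-14092998 lay 1478 bp from one.

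The largest class gained nothing: 3437 primed regions (51.3%) had no H3K27ac, RNAPII, H3K4me3 or Myc peak in any library of the model. The matching share of other H3K4me1 regions is not given here, so whether this is particular to primed regions is not known. Of these, 1381 also had no H3K4me1 in any tumour, and 205 kept H3K4me1 in all 5 transgenic libraries. By strength of wild-type H3K4me1 the first was chr13:17870680-17882190 (11511 bp, percentile 89.0), with H3K4me1 in all 5 transgenic libraries. The region chr15:62189766-62193609 (percentile 82.4) kept it in both transgenic spleen libraries and in no tumour. The other 2 were chr13:104678595-104685672, with H3K4me1 in tumours 1 and 2, and chr3:75346125-75349591, with H3K4me1 in all 3.

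Some primed regions were marked in an unrelated cell type. In 3T9 mouse fibroblasts that carry Myc fused to a hormone-binding domain, taken before its activation (1 library for each mark), H3K4me1 lay on 24.1% (1615) of primed regions, H3K27ac on 11.1% (741), RNAPII on 8.90% (596), Myc on 3.62% (242) and H3K4me3 on 1.02% (68). On acetylated distal regions the fibroblast shares were 32.9% for H3K4me1, 17.9% for H3K27ac, 7.25% for RNAPII, 6.54% for Myc and 1.61% for H3K4me3, so RNAPII alone of these was higher on primed regions. Over all 51047 wild-type H3K4me1 regions, promoters included, they were 47.9%, 35.2%, 27.4%, 22.2% and 27.7% in the same order. Fibroblast H3K27ac was set beside tumour H3K27ac: 14.6%, 14.6% and 23.1% of primed regions with it had H3K27ac in tumours 1, 2 and 3, against 11.6%, 13.4% and 19.9% of those without. For the 242 with fibroblast Myc, Myc lay on 25.6%, 23.6% and 32.2% in the tumours, against 12.8%, 11.6% and 15.5% of the other primed regions.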

How the data were processed

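Per the submitters' processing notes, reads were aligned to mm9 with BWA 0.6.2, handled with SAMtools, and peaks were called with MACS 1.4.1; settings are not given in the sources used here. Each library has its own deposited peak list of 5 columns. The score column was computed by the authors, is 80.01 or more in every list, and served here only for ranks and filters inside single lists. Of 60 samples, the 31 lists of the Eµ-myc model and the 3T9 MycER fibroblast lists were used; human and serum lists were not used here. A start below 0 (6 peaks) was set to 0, and no 2 lists were identical (0 identical pairs). The labels give no batch.

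A region counted as carrying a mark where a peak overlapped it by at least 1 bp. Backgrounds, called by the same rule, are shares of the wild-type H3K4me1 regions without the same mark in wild-type cells for H3K27ac, RNAPII and H3K4me3, of all of them for Myc, and of those in both lists for H3K4me1, primed regions included. Shares were compared over libraries by exact two-sided permutation tests (sign-flips where 2 sets of regions were read in the same library), with p as double the smaller tail and Benjamini-Hochberg adjustment over 10 comparisons. For 1 of the 10, H3K27ac on primed against acetylated distal regions, only values are given. None passed 0.05 after adjustment, and since the labels name no separate animals the p-values reflect only how these libraries scatter. Intervals are Clopper-Pearson at 95% and cover counting error only.

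Named regions were the 6 with H3K27ac, RNAPII, H3K4me3 and Myc in all 3 tumours (0 found), the 6 with H3K27ac in transgenic spleen and all 3 tumours and no H3K4me3, the 6 with H3K27ac in all 3 tumours, none in transgenic spleen and no Myc, each by mean H3K27ac score percentile, and the 4 with none of these marks by wild-type H3K4me1 percentile. The members, lists and tests were chosen with earlier results of these data known. The alternatives were a score filter, equal peak numbers, other overlap and region definitions, chromosomes 1 to 19, pairing by number and leaving out single libraries. The wild-type lists used by the rule were not left out. The planned motif counts and sequences were not analysed here.

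Python 3.11.15, numpy 2.4.6, pandas 2.3.3, scipy 1.17.1 and matplotlib 3.10.9 were used. Overlap calls were tested on simulated data placed on the 6694 primed regions (0 wrong calls in 3 simulated lists), and its counts equalled those of bedtools 2.31.1 in all 41 lists.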

Additional observations from a re-analysis of the deposited data

How the results depend on the processing

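Over 136 alternatives to the 10 comparisons none changed direction. The one test under 0.05 before adjustment, Myc on primed minus acetylated distal regions, was -14.2 points (exact sign-flip permutation p = 0.063, the smallest that 5 libraries allow) without both narrow-peak Myc libraries, an alternative chosen after seeing the data, as were peaks set to 500 bp and regions of 1500 to 3000 bp. Library numbers paired the Myc and H3K27ac lists in tumours, but not tumour with transgenic spleen libraries. Pairing by number was not examined for the other marks in tumours. Deviations of same-numbered tumour and transgenic spleen libraries correlated at -0.05, -0.08 and -0.13 for Myc, -0.05 for H3K4me1 and 0.11 for H3K4me3, the last 2 with only 2 pairs. With the number as a replicate block the differences were 12.2 points for Myc, -22.3 for H3K4me1 and 2.47 for H3K4me3 (exact sign-flip permutation p = 0.25, 0.5 and 0.5). Single transgenic libraries and the wild-type Myc library were left out in turn, which moved none of the 10 differences by over 1.5 times. Tumour minus transgenic spleen differences were then 11.1 to 13.1 points for Myc, -28.1 to -14.6 for H3K4me1, 2.47 to 2.91 for H3K4me3, 7.34 to 11.5 for H3K27ac and 4.44 to 7.57 for RNAPII. The last 2 ranges vary tumour libraries only, since transgenic spleen has 1 library of each. The wild-type lists that define the regions were never left out. Among regions of 1500 to 3000 bp, primed minus acetylated differences were -18.8 points for H3K4me1 and -27.7 for H3K27ac. Score thresholds moved more: over all alternatives the Myc difference ran from 0.523 to 13.1 points, H3K4me1 from -28.1 to -0.199, H3K4me3 from 0.117 to 2.91, H3K27ac from 4.28 to 11.5 and RNAPII from 2.68 to 7.57, and the Myc difference by tumour H3K27ac from 6.54 to 54.7. Read depth is unknown, and H3K27ac and RNAPII rest on 1 library each in transgenic and wild-type spleen.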
